A study of Mus musculus with 15 samples.

Results

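Mitochondrial biogenesis and dynamics were followed through 10 genes, picked by name from the 18804 genes of the count table: the transcriptional regulators Nrf1, Gabpa, Esrra and Ppargc1b, the mitochondrial DNA (mtDNA) factors Tfam and Polg, the fusion GTPases Mfn1, Mfn2 and Opa1, and the fission GTPase Dnm1l. All 10 passed the filter on low counts, as did 14293 genes in total. The genes were named for their function, with earlier results of these data known. The cells were white adipocytes that had been differentiated in culture from C57BL/6J mouse mesenchymal stem cells, which the study isolated from ear tissue. By the labels, adipogenesis was started with insulin, dexamethasone, methylisobutylxanthine and troglitazone in every group. One part of the study's methods names rosiglitazone in place of troglitazone. Day 0 adipocytes stayed at 37°C, day 1 adipocytes were moved to 31°C on day 15 of differentiation, and day 12 adipocytes were moved on day 4, and the harvest was on day 16 for all 3 groups. Time spent at 31°C and the stage of differentiation at the move therefore cannot be told apart. The 3 groups are also not successive times of 1 culture, since day 12 adipocytes were never in the day 1 state measured here. Rises and falls below are differences between groups. Each group had 5 libraries, and whether these came from separate mice or from dishes of 1 preparation was not stated, so the p-values measure the spread among these libraries.

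Nuclear genes encode almost all of the proteins that build, copy and shape mitochondria. NRF1, GABPA (also called NRF2 alpha) and ERR alpha bind the promoters of many of these genes, and coactivators of the PGC-1 family are recruited by them. Mitochondria also fuse and divide continually: mitofusins join outer membranes, OPA1 joins inner membranes, and DRP1, the product of Dnm1l, constricts the organelle. In adipocytes, induction of this program is best known from the browning of fat in the cold.

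Total counts were 64648178 to 133270973 per library, and the adipocyte markers were high in all 15 libraries, where 7 of the 8 listed exceeded 1 CPM (CPM is the count scaled to library size) in each group and Retn did not. The summed adipocyte markers were 5230 to 5770 CPM at day 0, 6220 to 6700 CPM at day 1 and 4800 to 5370 CPM at day 12. Of 6 brown or beige fat markers, Ucp1, Cidea, Cox8b and Elovl3 were below 1 CPM in every group, Cox7a1 averaged 1.5 CPM at day 0 and less later, and Dio2, the deiodinase that activates thyroid hormone, averaged 164, 213 and 73.3 CPM at days 0, 1 and 12. At day 12 the 8 markers of dividing cells summed to 182 to 221 CPM, against 56.1 to 69.5 CPM at day 0 and 67.5 to 79.6 CPM at day 1. Of the 8 adipocyte markers 4 were then lower than at day 0 (Adipoq, 464 against 1090 CPM, Cfd, Cidec and Lep) and 4 higher (Fabp4, 1620 against 828 CPM, Plin1, Lpl and Retn). The 8 stromal progenitor markers summed to 1470 to 1540, 1510 to 1590 and 1320 to 1330 CPM at days 0, 1 and 12. These sums hide opposite shifts. At day 12 Ly6a (221 against 591 CPM) and Dlk1 (20.4 against 38.3 CPM) were lower than at day 0. Pdgfra (712 against 562 CPM) and Pdgfrb (184 against 131 CPM) were higher. Chondrocyte markers, mostly Comp, averaged 4010, 3990 and 1180 CPM in sum, keratinocyte markers, mostly Trp63, 52.2, 21.5 and 62.5 CPM, and mesothelial markers, mostly Msln at day 12, 2.12, 1.95 and 30.7 CPM. Macrophage, endothelial and muscle markers summed to at most 13 CPM in any library. The part of these shifts in the values below was not tested, and in bulk RNA fewer cells of a type and less RNA per cell cannot be told apart.

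Across the 10 regulators, with libraries scaled by TMM (trimmed mean of M-values), 4 rose, 3 fell and 3 did not pass the test after 1 day at 31°C, and 5 rose, 2 fell and 3 did not pass after 12 days, by edgeR's quasi-likelihood test at a Benjamini-Hochberg adjusted p under 0.05 over all genes. Most differences were small. At day 1 the absolute log2 fold change of the 10 genes had a median of 0.21, against 0.30 over all genes tested, and at day 12 these medians were 0.13 and 0.35. Gabpa fell at day 1 and then rose above its day 0 level, Tfam rose at day 1 and was back near its day 0 level at day 12, and Polg fell at day 1 and remained low. Mfn1, Opa1 and Dnm1l rose modestly at both times, Mfn2 did not pass the test at either time, and the other 3 differed little or rested on few reads.

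Beside these counts stand the shares of all genes that passed the same rules. At an adjusted p under 0.05 alone, 35.3% of all genes tested were higher and 36.2% lower at day 1, and 39.2% were higher and 37.4% lower at day 12. With a fold change over 1.5 required as well, 0 of the 10 regulators were higher and 1 lower at day 1, against 7.71% and 13.4% of all genes, and 0 were higher or lower at day 12, against 13% and 16.2%. Libraries of the 2 groups did not overlap for 6 of the 10 at day 1 and for 4 of the 10 at day 12, against 57.4% and 64.6% of all genes. Between day 1 and day 12, 2 of the 10 were higher and 3 lower at adjusted p alone (34.3% and 32.8% of all genes), 1 was higher and 0 lower with the fold change required (10.6% and 8.53%), and 3 did not overlap (52.5%). At these shares the regulators changed about as often as other genes and past 1.5-fold no more often, so the counts carry no result about the group.

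**Figure D1:**
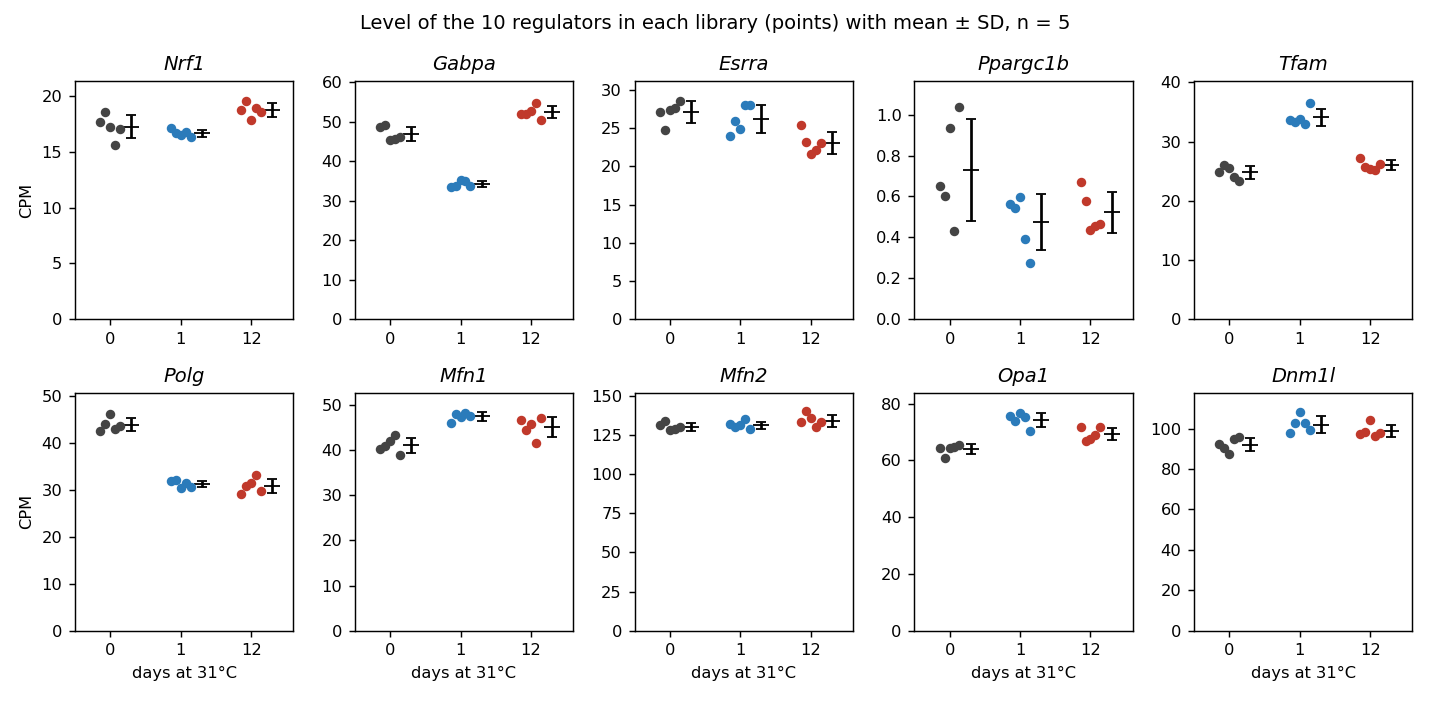
CPM (vertical axes, each from 0) of the 10 regulators after 0, 1 and 12 days at 31°C (horizontal axes), with 1 point per library and bars giving mean ± SD of 5 libraries. Gabpa is lowest at day 1, at 33.6 to 35.2 CPM, and Tfam is highest at day 1, at 33.0 to 36.6 CPM. Polg lies at 42.6 to 46.1 CPM at day 0 and at most 33.1 CPM at days 1 and 12. The Mfn2 groups overlap throughout.

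Nrf1, Gabpa and Esrra encode factors that bind promoters. Promoters of the group were therefore searched on both strands for 8-base consensus motifs: CGCANGCG for NRF1, CCGGAAGT for GABPA and CAAGGTCA for ERR alpha. Windows ran from 250 bases before to 50 bases after each RefSeq transcription start (build GRCm38.p6), and 9 of the 10 genes had at least 1 window, 13 windows in all. The NRF1 motif was found in 4 of the 9 genes (Nrf1 itself, Gabpa, Esrra and Opa1), compared with 14.9% of the 12921 count-table genes with a window and 8.21% of all 32851 windows. The GABPA motif was found in 3 (Tfam, Polg and Mfn1), compared with 6.55% of genes and 3.89% of windows. The ERR alpha motif was found in none of the 9 (1.45% of genes, 1.56% of windows). A match is a description of letters and not evidence of binding.

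The 100 bases before the RefSeq start are shown for the 7 genes with a match there, with the match in capitals. Each sequence runs 5′ to 3′ on the strand of its gene. The gene spans given below come from another annotation, and some begin at other starts. By those spans the stretches of Gabpa and Tfam lie within the gene, as does most of the Polg stretch. The Mfn1 and Esrra stretches reach into it at their ends. The first 3 sequences hold the GABPA motif, between positions -47 and -31 counted from the RefSeq start, and the other 4 hold the NRF1 motif.
Tfam, chr10:71238045-71238144, minus strand: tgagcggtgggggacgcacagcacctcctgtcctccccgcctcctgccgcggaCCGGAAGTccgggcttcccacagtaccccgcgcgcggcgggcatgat
Polg, chr7:79466274-79466373, minus strand: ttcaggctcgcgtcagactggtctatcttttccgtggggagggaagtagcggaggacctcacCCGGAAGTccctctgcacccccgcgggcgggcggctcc
Mfn1, chr3:32529382-32529481, plus strand: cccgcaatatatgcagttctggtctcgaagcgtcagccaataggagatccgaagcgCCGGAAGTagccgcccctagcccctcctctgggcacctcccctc
Nrf1, chr6:30047888-30047987, plus strand: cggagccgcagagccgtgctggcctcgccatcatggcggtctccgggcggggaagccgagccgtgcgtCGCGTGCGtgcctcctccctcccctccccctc
Gabpa, chr16:84835024-84835123, plus strand: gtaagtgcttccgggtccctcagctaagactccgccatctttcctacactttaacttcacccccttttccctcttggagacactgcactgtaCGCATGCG
Esrra, chr19:6921809-6921908, minus strand: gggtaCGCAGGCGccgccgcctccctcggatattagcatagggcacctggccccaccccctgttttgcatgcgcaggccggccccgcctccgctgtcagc
Opa1, chr16:29579234-29579333, plus strand: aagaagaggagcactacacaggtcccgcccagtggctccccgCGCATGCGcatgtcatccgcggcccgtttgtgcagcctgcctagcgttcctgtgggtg
In Gabpa and Opa1 the same 8 bases read as a match on both strands. Esrra has a further match of the NRF1 motif outside the stretch shown. The 3 genes with the GABPA motif did not move together at day 1, when Gabpa itself fell by 0.46 on the log2 scale: Tfam and Mfn1 rose, by 0.46 and 0.21, and Polg fell by 0.49. Of the 4 genes with the NRF1 motif, Nrf1 and Esrra were at -0.05, Gabpa at -0.46 and Opa1 at 0.22. Control of these genes by GABPA or NRF1 was not tested.

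Gabpa had the largest changes among the 3 transcription factors at day 1 and between day 1 and day 12, while at day 12 against day 0 Esrra changed more. GABPA is the DNA-binding subunit of the GABP complex, and its gene lies on chromosome 16 from 84834925 to 84863779 (GRCm38, plus strand). Gabpa stood at 48.6, 49.2, 45.4, 45.6 and 46.1 CPM in the 5 day 0 libraries, at 33.6, 33.8, 35.2, 34.9 and 33.7 CPM at day 1, and at 52.0, 52.0, 52.8, 54.8 and 50.5 CPM at day 12. The 3 groups did not overlap, and day 1 was the lowest and day 12 the highest. Against day 0 its log2 fold change was -0.46 ± 0.032 (SE, adjusted p = 6.69e-12) at day 1 and 0.16 ± 0.032 (adjusted p = 9.54e-05) at day 12. Gabpa was higher at day 12 than at day 1 by 0.61 ± 0.032 (adjusted p = 3.35e-14), or 1.53-fold. This was the only change past 1.5-fold among the 10 regulators in that comparison. Its 95% interval, 0.55 to 0.68, included the 1.5-fold limit, and a test against that limit did not call it. Of its exon bases 6.98% lie within Atp5j on the opposite strand, and because the strand setting of the counting was not stated, reads there cannot be assigned to either gene.

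GABPA acts with a beta subunit, encoded by Gabpb1 or Gabpb2. These 2 genes and Pprc1 below were chosen after their values were seen. Gabpb2 averaged 29.0 CPM at day 0, 22.7 CPM at day 1 and 34.0 CPM at day 12, so that it fell by 0.36 on the log2 scale and then stood 0.23 above day 0 (adjusted p = 3.58e-07 and 0.000103). Gabpb1 was 19.4, 17.1 and 18.5 CPM and passed the test at day 1 (log2 fold change -0.18, adjusted p = 0.00634) but not at day 12 (-0.07, adjusted p = 0.277).

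Nrf1, which encodes a factor that binds the promoters of many respiratory genes, lies on chromosome 6 from 30047988 to 30153458 (plus strand). Nrf1 was at 17.7, 18.6, 17.3, 15.6 and 17.1 CPM at day 0, at 17.2, 16.7, 16.5, 16.8 and 16.4 CPM at day 1 and at 18.8, 19.6, 17.9, 19.0 and 18.6 CPM at day 12. Day 0 overlapped both other groups, while every day 12 library was above every day 1 library. The log2 fold change was -0.05 (95% interval -0.14 to 0.04, adjusted p = 0.332) at day 1 and 0.12 ± 0.044 (SE, adjusted p = 0.0153) at day 12, and the difference between those times was 0.17 (adjusted p = 0.00168). The day 12 rise rested on 1 library, since without day 0 replicate 4, the lowest of its group, it was 0.09 (adjusted p = 0.0607).

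Esrra, on chromosome 19 from 6910977 to 6921813 (minus strand), encodes ERR alpha, an orphan nuclear receptor that works with PGC-1 coactivators on genes of oxidative metabolism. Esrra was at 27.1, 24.7, 27.4, 27.7 and 28.5 CPM at day 0, at 24.0, 25.9, 24.9, 28.0 and 28.0 CPM at day 1 and at 25.4, 23.2, 21.6, 22.2 and 23.0 CPM at day 12. Most day 12 libraries lay below the other groups, but day 12 replicate 1 lay within both. Day 1 did not pass the test (log2 fold change -0.05, 95% interval -0.15 to 0.05, adjusted p = 0.391), and at day 12 Esrra fell by 0.23 ± 0.05 (adjusted p = 0.000217), a direction that turned with reference genes as the scale (0.61). Day 12 was also below day 1, by 0.18 (adjusted p = 0.00283). In the 11 libraries of the larger series of library numbers in the labels, this fall was 0.11 and did not pass (adjusted p = 0.105). Under total counts the change was -0.008 (adjusted p = 0.89), and with reference genes it turned to 0.611 (adjusted p = 1.34e-11). The related receptors Esrrb and Esrrg had at most 5 and 17 counts in any library and were not tested.

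Transcripts of the best known PGC-1 coactivators were scarce. Ppargc1b, encoding PGC-1 beta, lies on chromosome 18 from 61298136 to 61400431 (minus strand) and had 28 to 95 counts per library. Ppargc1b was at 0.651, 0.603, 0.934, 0.432 and 1.04 CPM at day 0, at 0.563, 0.542, 0.598, 0.391 and 0.274 CPM at day 1 and at 0.671, 0.580, 0.437, 0.456 and 0.465 CPM at day 12. The groups overlapped, and the SD at day 0 was 34.0% of the mean. At day 1 the fitted log2 fold change was -0.63 ± 0.26 (SE, adjusted p = 0.0332), the 1 call past 1.5-fold in that comparison, and at day 12 it was -0.48 (95% interval -1.01 to 0.05, adjusted p = 0.0919). The day 1 call depended on single libraries. Leaving out day 0 replicate 3 (-0.53, adjusted p = 0.0927) or replicate 5 (-0.48, adjusted p = 0.118) ended it, as did leaving out replicate 4 (-0.58, adjusted p = 0.0739) or replicate 5 (-0.48, adjusted p = 0.108) of day 1. In the larger series of library numbers it was -0.21 (adjusted p = 0.546). Without day 0 replicate 4, Ppargc1b passed at day 12 as well (-0.62, adjusted p = 0.0314).

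Ppargc1a, which encodes PGC-1 alpha and is not among the 10 genes, fell at both times. It averaged 3.31 ± 0.275 CPM (SD, n = 5) at day 0, 2.39 ± 0.244 CPM at day 1 and 1.17 ± 0.412 CPM at day 12, with no overlap between any pair of groups. Its log2 fold change was -0.47 (adjusted p = 0.00763) and -1.50 (adjusted p = 8.94e-09). The related coactivator gene Pprc1 fell by 0.40 at day 1 (adjusted p = 1.37e-09) and differed by 0.06 at day 12 (adjusted p = 0.145). Of 10 coactivators, partners and other upstream regulators tested, of 13 listed, 1 rose and 6 fell at day 1 and 3 rose and 4 fell at day 12, with list medians of -0.27 and -0.03 against -0.01 and 0.01 for all genes. The shares of all genes to set beside this and each following list are 35.3% higher and 36.2% lower at day 1 and 39.2% and 37.4% at day 12, and past 1.5-fold 7.71% and 13.4% at day 1 and 13% and 16.2% at day 12. Past 1.5-fold there were 0 at day 1 and 2 at day 12, both lower: Ppargc1a and Prkaa2, a catalytic subunit of the energy sensor AMPK, which fell by 0.88 (adjusted p = 1.6e-10). With reference genes as the scale Prkaa2 was -0.04 and did not pass (adjusted p = 0.608).

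Tfam and Polg, which serve mtDNA directly, moved in opposite directions at day 1. TFAM packages mtDNA and is needed to start its transcription, and its gene lies on chromosome 10 from 71225464 to 71238280 (minus strand). Tfam was at 24.9, 26.0, 25.6, 24.1 and 23.4 CPM at day 0, at 33.6, 33.4, 33.9, 33.0 and 36.6 CPM at day 1 and at 27.3, 25.7, 25.4, 25.2 and 26.3 CPM at day 12. All day 1 libraries stood above all others, and days 0 and 12 overlapped. After 1 day the gene had risen by 0.46 ± 0.038 on the log2 scale (SE, adjusted p = 1.13e-10), or 37.7%. At day 12 it was 0.07 (95% interval -0.01 to 0.15, adjusted p = 0.119). Tfam at day 12 passed under total counts (0.26, adjusted p = 2.46e-06) and with reference genes (0.906, adjusted p = 3.59e-18). The difference between the times was -0.39 (adjusted p = 2.5e-09), which turned to 0.40 with reference genes as the scale.

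Polg encodes the catalytic subunit of the mtDNA polymerase, on chromosome 7 from 79446231 to 79466362 (minus strand). Polg was at 42.6, 44.0, 46.1, 42.9 and 43.7 CPM at day 0, at 31.8, 32.2, 30.5, 31.4 and 30.7 CPM at day 1 and at 29.1, 30.8, 31.4, 33.1 and 29.8 CPM at day 12. Every library kept at 31°C was below every day 0 library, and the 31°C groups overlapped each other. Polg fell by 0.49 ± 0.036 (SE, adjusted p = 1.19e-11) at day 1 and by 0.51 ± 0.036 (adjusted p = 3.23e-12) at day 12. The difference between the times was -0.02 (95% interval -0.10 to 0.05, adjusted p = 0.594). That difference turned to 0.15 under total counts (adjusted p = 6e-04) and to 0.765 with reference genes (adjusted p = 1.66e-18). Against day 0, Polg fell by 28.6% at day 1 and fell by 29.7% at day 12, short of the 1.5-fold limit, and with reference genes as the scale the day 12 value turned to 0.33. Of its exon bases 8.57% are shared with Fanci on the opposite strand, where reads cannot be told apart. Polg2, the accessory subunit of the same enzyme, was named after its values were seen: it averaged 4.38, 6.07 and 3.73 CPM at days 0, 1 and 12, up by 0.47 at day 1 (adjusted p = 9.12e-05) and down by 0.23 at day 12 (adjusted p = 0.0361).

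Other genes of mtDNA transcription, replication and upkeep also moved both ways. Of 18 tested, of 21 listed, 6 rose and 9 fell at day 1, and 5 rose and 8 fell at day 12, with list medians of -0.115 and -0.11. Past 1.5-fold, 0 rose and 4 fell at day 1 and 0 rose and 2 fell at day 12. Tfb1m, a methyltransferase of mitochondrial ribosomal RNA, fell most at day 1, from 6.30 ± 0.879 to 2.35 ± 0.159 CPM (SD, n = 5), a log2 change of -1.42 (adjusted p = 2.42e-12), and was -0.52 at day 12 (adjusted p = 1.3e-05), past 1.5-fold there without day 0 replicate 5 (-0.59). Rrm2b, which supplies deoxynucleotides in cells that do not divide, fell by 0.60 at day 1 (adjusted p = 2.63e-11) and by 0.64 at day 12 (adjusted p = 5.14e-12). The Rrm2b call past 1.5-fold at day 1 was lost without day 0 replicate 4 (-0.56) or day 1 replicate 4 (-0.57), and also under total counts (-0.58), reference genes (-0.55), both uses of the library number series (-0.58 and -0.56) and a test against 1.5-fold. Ccdc111, the older symbol of the primase gene Primpol, fell by 0.74 after 1 day (adjusted p = 3.97e-09) and by 0.69 after 12 days (adjusted p = 8.29e-09), and 17.3% of its exon bases overlap other genes, mainly Cenpu on the opposite strand. Neither Rrm2b (-0.45) nor Ccdc111 (-0.50) passed 1.5-fold at day 12 under total counts, and neither did by the test against 1.5-fold. That test did not call Ccdc111 at day 1 either (adjusted p = 0.0528). The fourth at day 1 was Dguok, a deoxynucleoside kinase, at -0.59 (adjusted p = 6.83e-11), which was named after its values were seen. The 13 protein-coding mRNAs of mtDNA itself were not analysed here.

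**Figure D2:**
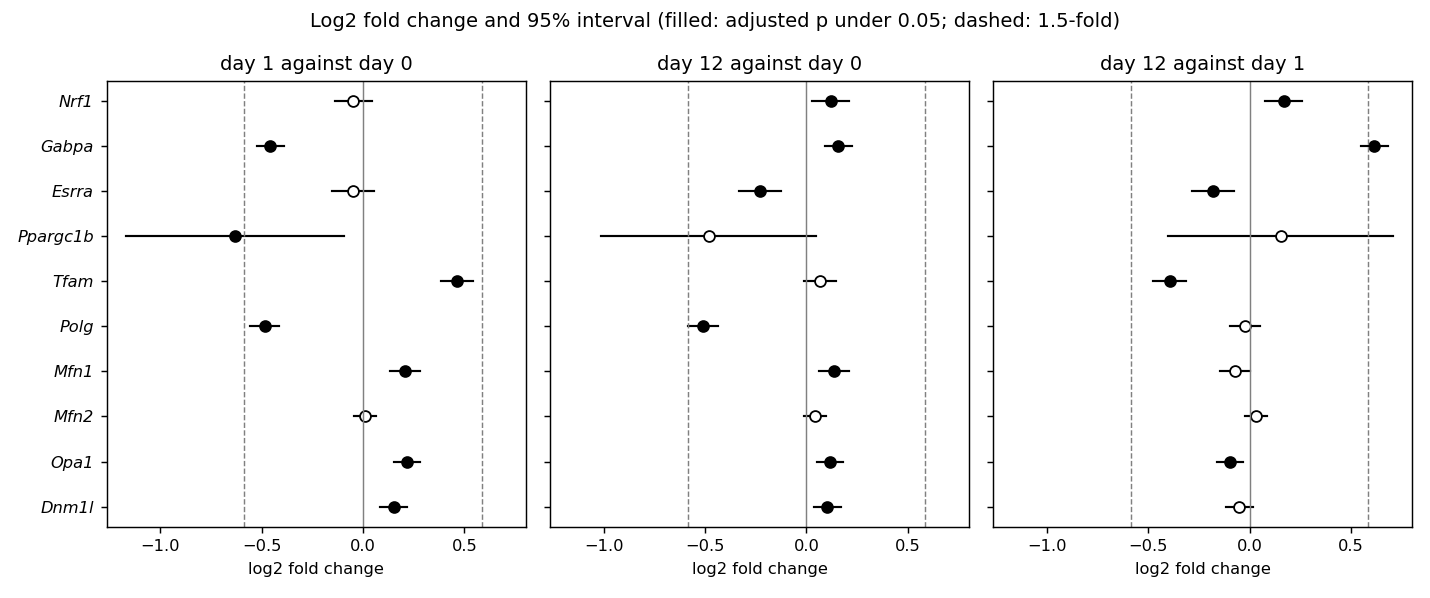
Log2 fold change (horizontal axes) of each regulator (vertical axis) in the 3 comparisons, with 95% intervals as lines; filled points have an adjusted p under 0.05 by edgeR's quasi-likelihood test, and dashed lines mark 1.5-fold. Gabpa and Polg lie left of 0 at day 1 and Tfam right of it, Polg stays near -0.51 at day 12 with TMM scaling, and the interval of Ppargc1b, -1.17 to -0.10 at day 1, is the widest.

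At day 1 the fusion genes had smaller fold changes than Tfam and Polg. Mitofusin 1 is encoded by Mfn1, on chromosome 3 from 32529465 to 32579239 (plus strand). Mfn1 was at 40.1, 40.8, 42.0, 43.4 and 38.9 CPM at day 0, at 45.9, 47.9, 47.3, 48.2 and 47.6 CPM at day 1 and at 46.6, 44.5, 45.7, 41.5 and 47.0 CPM at day 12. Days 0 and 1 did not overlap, and day 12 overlapped both. Mfn1 rose by 0.21 ± 0.036 (SE, adjusted p = 1.51e-05) at day 1 and by 0.14 ± 0.036 (adjusted p = 0.00148) at day 12. The times differed by -0.07 (adjusted p = 0.0791), which passed without day 12 replicate 5 (-0.09, adjusted p = 0.0478). This difference turned under total counts (0.1, adjusted p = 0.0179) and with reference genes (0.719, adjusted p = 7.68e-16).

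Its paralog Mfn2, which also tethers mitochondria to the endoplasmic reticulum, lies on chromosome 4 from 147873599 to 147904704 (minus strand). Mfn2 was at 131, 134, 128, 129 and 130 CPM at day 0, at 132, 130, 131, 135 and 129 CPM at day 1 and at 133, 140, 136, 130 and 133 CPM at day 12. The 3 groups overlapped. With TMM scaling the log2 fold change was 0.01 (95% interval -0.04 to 0.06, adjusted p = 0.737) at day 1 and 0.04 (-0.01 to 0.10, adjusted p = 0.137) at day 12. Under that scaling, differences past 0.10 in either direction lay outside both intervals. The limit depends on the scaling. At day 12 Mfn2 was 0.235 under total counts (adjusted p = 1.15e-08) and 0.882 with reference genes (adjusted p = 3.29e-21).

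Opa1, on chromosome 16 from 29579334 to 29654884 (plus strand), encodes the inner membrane fusion GTPase that also maintains cristae. Opa1 was at 64.3, 60.9, 64.3, 64.8 and 65.3 CPM at day 0, at 75.6, 73.7, 76.7, 75.2 and 70.2 CPM at day 1 and at 71.7, 66.8, 67.6, 69.0 and 71.7 CPM at day 12. Both 31°C groups lay above day 0 with no overlap, and they overlapped each other. Opa1 rose by 0.22 ± 0.031 (SE, adjusted p = 1.12e-06) at day 1 and by 0.12 ± 0.031 (adjusted p = 0.00145) at day 12, and the rise at day 12 was smaller than that at day 1 by 0.10 (adjusted p = 0.00726), a direction that turned under total counts (0.07, adjusted p = 0.0365) and reference genes (0.69).

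Fission was represented by Dnm1l, on chromosome 16 from 16312230 to 16358959 (minus strand). Dnm1l was at 92.5, 90.2, 87.3, 94.8 and 95.6 CPM at day 0, at 97.8, 103, 108, 103 and 99.3 CPM at day 1 and at 97.5, 98.1, 104, 96.5 and 97.9 CPM at day 12. Every library at 31°C exceeded every day 0 library, by a narrow margin at day 12. Dnm1l rose by 0.15 ± 0.032 (SE, adjusted p = 0.000191) at day 1 and by 0.10 ± 0.032 (adjusted p = 0.00612) at day 12. The difference between the times, -0.05, did not pass the test (adjusted p = 0.181). Its direction turned under total counts (0.123, adjusted p = 0.00161) and with reference genes (0.74, adjusted p = 6.37e-19), and both passed.

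Receptors and helpers of fission moved both ways, some of them past 1.5-fold. All 13 listed genes were tested, of which 7 rose and 4 fell at day 1 and 8 rose and 4 fell at day 12 (all genes: 35.3% and 36.2%, then 39.2% and 37.4%), with list medians of 0.10 and 0.18. Past 1.5-fold, 3 rose and 2 fell at day 1 (7.71% and 13.4% of all genes), and 1 rose and 1 fell at day 12 (13% and 16.2%). Smcr7, now named Mief2, and Fis1, both outer membrane proteins that act with DRP1, rose by 0.69 (adjusted p = 9.82e-12) and 0.68 (adjusted p = 1.97e-16) at day 1 and by 0.35 (adjusted p = 9.1e-07) and 0.54 (adjusted p = 7.33e-15) at day 12. Fis1 went from 52.6 ± 1.43 CPM at day 0 to 84.5 ± 1.33 CPM at day 1 and 76.7 ± 1.98 CPM at day 12 (SD, n = 5). Fam54a, now Mtfr2, was at most 1.63 CPM in any library and rose by 0.59 and 1.14 at days 1 and 12 (adjusted p = 0.00527 and 2.55e-06). Its day 1 change crossed back under 1.5-fold without any of 5 libraries: day 0 replicates 2, 3 and 4 and day 1 replicates 1 and 5, with 0.435 the lowest value (day 1 replicate 1). The genes that fell past 1.5-fold had few reads and were named after their values were seen: Mtfp1 fell from 1.12 to 0.471 CPM at day 1 (log2 fold change -1.24, adjusted p = 2.28e-06) and 0.314 CPM at day 12 (-1.83, adjusted p = 7.13e-09), and Gdap1 fell from 0.701 to 0.152 CPM at day 1 (-2.24, adjusted p = 2.7e-06).

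Among fusion helpers, proteases that process OPA1 and cristae proteins, 9 of 17 tested (18 listed) rose and 4 fell at day 1, and 11 rose and 3 fell at day 12, with list medians of 0.15 and 0.23. The proteases themselves moved apart at day 1, when 1 gene rose and 1 fell past 1.5-fold. Afg3l2, a subunit of the matrix AAA protease, rose from 56.8 ± 1.48 to 104 ± 1.67 CPM (SD, n = 5), by 0.87 (adjusted p = 2.21e-18). Oma1, the stress-activated protease that cleaves OPA1, fell from 18.1 ± 0.877 to 9.95 ± 0.917 CPM, by 0.86 (adjusted p = 3.72e-12). At day 12 these were 0.12 (adjusted p = 0.000516) and -0.50 (adjusted p = 2.7e-08), and 0 genes of the list passed 1.5-fold.

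Protein import, porins and citrate synthase are often taken as measures of mitochondrial content. Of 20 genes 15 rose and 1 fell at day 1 (35.3% and 36.2% of all genes), and 16 rose and 3 fell at day 12 (39.2% and 37.4%), with list medians of 0.27 and 0.25. Past 1.5-fold 4 rose at day 1 and 2 at day 12, and 0 fell. The test against 1.5-fold did not call 1 of these at day 12, Timm23 (adjusted p = 0.0798). At day 12 Tomm70a also passed 1.5-fold under total counts (0.691) and with reference genes (1.337), and Tomm20 with reference genes (1.191). The translocase genes Timm23, Tomm20 and Tomm70a rose by 0.71, 0.71 and 0.69 at day 1 and by 0.64, 0.35 and 0.50 at day 12, with adjusted p no higher than 3.8e-10. Timm8a1, an intermembrane space chaperone, rose by 0.27 (adjusted p = 0.000692) and then 0.88 (adjusted p = 7.3e-12). Others were named after their values were seen. The fourth past 1.5-fold at day 1, Timm10, was 0.65 (adjusted p = 6.85e-09). The porin gene Vdac1 fell at both times, by 0.26 (adjusted p = 4.2e-10) and 0.38 (adjusted p = 2.16e-13), and Tomm6 and Tomm7 fell at day 12, by 0.26 and 0.34 (adjusted p = 1.29e-07 and 6.06e-10). Citrate synthase (Cs) was 0.03 at day 1 (adjusted p = 0.309) and rose by 0.21 at day 12 (adjusted p = 6.69e-08).

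Genes of mitochondrial transport and of mitophagy had no common direction. Of 4 transport genes 1 rose and 1 fell at day 1 and 1 rose and 3 fell at day 12, with list medians of -0.003 and -0.15 and none past 1.5-fold. Of 8 mitophagy genes 4 rose and 4 fell at each time, with list medians of 0.10 and -0.06. The 1 past 1.5-fold was Bnip3, a hypoxia-induced mitophagy receptor, which went from 584 ± 23.3 CPM at day 0 to 483 ± 16.2 CPM at day 1 and 294 ± 12.4 CPM at day 12 (SD, n = 5). Its log2 fold change was -0.27 (adjusted p = 6.73e-08) and -0.99 (adjusted p = 2.01e-18), and 22.3% of its exon bases overlap a gene on the opposite strand. With reference genes as the scale its day 12 value was -0.15 and no longer past 1.5-fold.

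**Figure D3:**
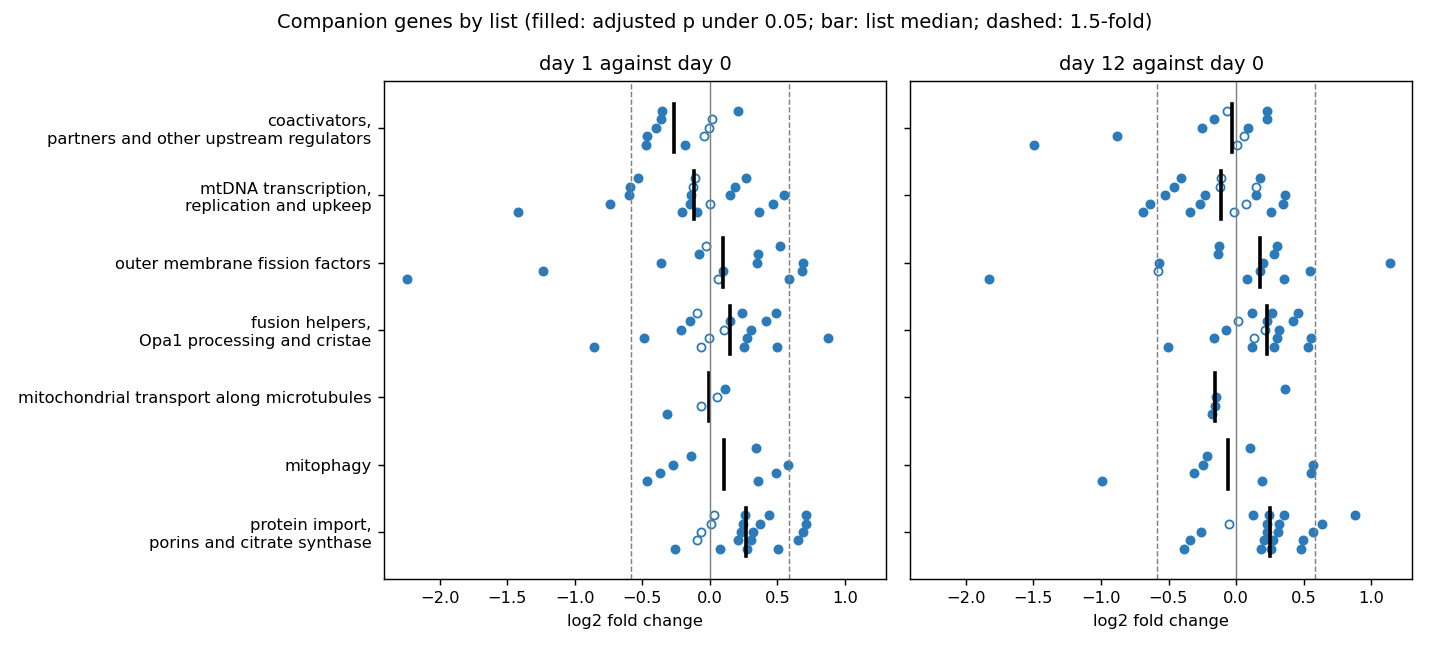
Log2 fold change (horizontal axes) at day 1 and day 12 of companion genes in 7 lists (vertical axis), with 1 point per gene, filled where the adjusted p is under 0.05, black bars for list medians and dashed lines at 1.5-fold. Protein import has the highest medians, 0.27 and 0.25, and the coactivator list runs down to -1.50 (Ppargc1a) at day 12.

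Levels of different genes were compared per kb of exon (RPKM, CPM divided by the length of the exons in kb). At day 0 Mfn2 was highest with 25.1 ± 0.44 RPKM (SD, n = 5), followed by Dnm1l with 17.7 ± 0.65. Gabpa (8.26) and Opa1 (8.12) overlapped, as did the neighbors Mfn1 (6.71) and Esrra (6.17), and Esrra and Tfam (5.59). Polg (4.08), Nrf1 (1.68) and Ppargc1b (0.183) each stood below the gene before. This order shifted in the middle at day 1. Tfam reached 7.68 RPKM and overlapped Mfn1 at 7.75, and Gabpa at 6.02 overlapped Esrra at 5.96. At day 12 Gabpa ranked next after Dnm1l, as at day 0, with 9.22 RPKM, overlapping Opa1 at 8.81. Tfam at 5.85 RPKM overlapped Esrra at 5.26. By RPKM, Mfn2 and Dnm1l ranked highest and Polg, Nrf1 and Ppargc1b lowest in all 3 groups. Ranks depend on the exon length used, here the union over all transcripts of a gene. This was 10742 bases for Polg and 10282 for Nrf1, against 5687 for Gabpa and 6114 for Mfn1. In CPM at day 0, Polg (43.9) lay between Gabpa (47) and Mfn1 (41), while Nrf1 (17.3) and Ppargc1b (0.731) were still lowest. Ranks with other lengths were not tested.

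**Figure D4:**
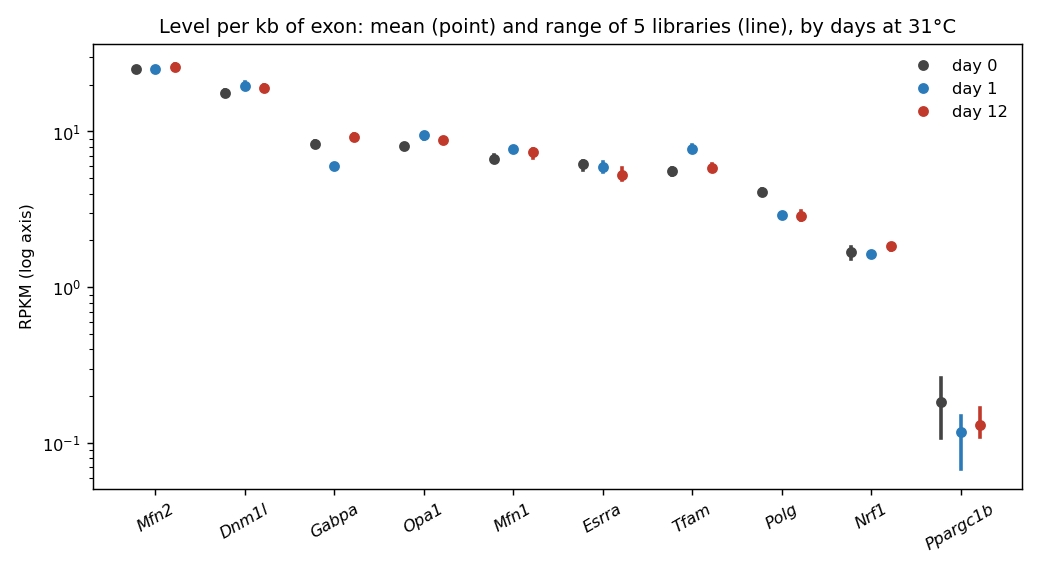
RPKM on a log axis (vertical) of the 10 regulators, ordered by their day 0 level (horizontal), at days 0, 1 and 12 of 31°C, with points for means and lines for the range of 5 libraries. Levels run from 25.1 RPKM for Mfn2 to 0.183 RPKM for Ppargc1b at day 0, and only Gabpa and Tfam change places with several neighbors at day 1.

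For each regulator, the gene with the most similar course was sought as the smallest root mean square (RMS) difference of log2 CPM over the 15 libraries, each taken relative to the gene's own day 0 mean. Gabpa was nearest to Clcn4-2 (RMS 0.052), Tfam to Mcart1, now Slc25a51 (0.057), and Polg to Zfp36l1 (0.047), of which 55.9% of exon bases overlap other genes. Mfn1 and Opa1 shared the same nearest gene, Copb1 (0.042 and 0.034), Dnm1l was nearest to Oxr1 (0.036), Mfn2 to Rnf6 (0.025), Nrf1 to Tsc2 (0.046) and Esrra to Acadvl (0.064), of which 42.9% of exon bases overlap other genes. For Ppargc1b the nearest gene, Zbtb20, was at 0.289. The number of genes within an RMS of 0.1 was 44 for Gabpa, 131 for Polg and 141 for Tfam, against 458 to 848 for Nrf1, Mfn1, Mfn2, Opa1 and Dnm1l, 156 for Esrra and 0 for Ppargc1b.

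Directions at day 12 depend on the scaling of the libraries. With total counts in place of TMM factors the median log2 fold change of all genes rose from 0.01 to 0.205 against day 0 and from 0.01 to 0.18 against day 1, and among genes called between days 12 and 0 the lower ones made up 35.9% instead of 55.6%. Under total counts Esrra was -0.04 at day 12 and did not pass (adjusted p = 0.52), while Tfam (0.26) and Mfn2 (0.235) passed. Relative to the median of all genes, Polg was -0.52 and Esrra -0.24 at day 12; a scaling moves all genes together, so these relative values are the same under each scaling by construction and do not settle the direction. With the 4 reference genes in the table as the scale, the median of all genes was 0.85. Polg and Esrra were then above 0, at 0.33 and 0.61. All 4 reference genes were themselves lower at day 12 under TMM scaling: B2m at -2.12, Gapdh at -0.70, Tbp at -0.27 and Hprt at -0.25.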

How the data were processed

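Per the labels and the study's methods, total RNA was extracted from cultured adipocytes, sequenced, checked with FastQC and aligned to the mouse build mm10 with TopHat2 2.0.13 and Bowtie2 2.2.1, and the authors deposited raw counts of reads per gene from HTSeq. The strand setting and the annotation used for counting, and any selection of poly(A) RNA, were not given in the sources used here. The authors also deposited regularized log2 values and DESeq2 tables of fold changes and p-values for each time point against day 0, which were not used.

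All 15 libraries entered 1 fit in edgeR 4.0.16 (R 4.3.3): genes passing filterByExpr at a minimum count of 10, TMM factors (0.9459 to 1.094), glmQLFit and glmQLFTest, with Benjamini-Hochberg adjustment over 14293 genes. Genes were counted at an adjusted p under 0.05, with and without a fold change over 1.5. CPM used TMM library sizes, so 3 counts equal at most 0.0428 CPM, and RPKM divided CPM by the union of exon bases in GENCODE vM21 (GRCm38). The biological coefficient of variation was 5.25%. Pairs of libraries within a group differed beyond counting noise in all 30 cases (chi-square per degree of freedom 5.57 to 23.5), so none was counted as a duplicate. The fit was tested on simulated counts with 200 changed genes. Intervals cover 95%.

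The 10 genes and all lists were chosen with earlier results of these data known. Named companions were Ppargc1a, up to 3 genes per list and comparison with day 0 with the largest called change at a mean of at least 1 CPM, and the gene nearest to each regulator; exceptions are stated. The fit was repeated with DESeq2 1.42.0 (Wald test), DESeq2 size factors, total counts, 4 of 6 reference genes, glmTreat, 2 other filters, only the groups compared, a replicate block, the series of library numbers, and without each library. Libraries with the same replicate number had correlations of deviations of -0.0255 to 0.0436. Of 15 libraries, 10 correlated best with a library of their own number. Whether the numbers pair the libraries was therefore not settled, and the main fit left them unpaired.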

Additional observations from a re-analysis of the deposited data

Results flagged for a closer look

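In 3 of 30 sets of 5 libraries, 1 library stood apart from the other 4 by Dixon's test, where chance gives about 1 in 20. Tfam in day 1 replicate 5 was 36.6 CPM, above the others by 0.75 of the range of its group. Opa1 in day 0 replicate 2 was 60.9 CPM, below the others by 0.773 of the range. Dnm1l in day 12 replicate 3 was 104 CPM, above the others by 0.787 of the range.

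The changes at day 1 and at day 12 share the day 0 libraries, so their difference was tested as day 12 against day 1 with edgeR's quasi-likelihood test. It passed for 5 of the 10 regulators: Gabpa (0.614, adjusted p = 3.35e-14), Tfam (-0.394, adjusted p = 2.5e-09), Nrf1 (0.169, adjusted p = 0.00168), Esrra (-0.181, adjusted p = 0.00283) and Opa1 (-0.099, adjusted p = 0.00726). Of all genes tested, 34.3% were higher and 32.8% lower in that comparison at adjusted p alone, so the count carries no result about the group. With reference genes as the scale the sign turned for Tfam (0.397), Esrra (0.611) and Opa1 (0.692), and under total counts for Opa1 (0.074), while Esrra no longer passed (-0.008, adjusted p = 0.89).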

How the results depend on the processing

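Of 747 values of the 10 regulators recomputed under other settings, 709 kept their direction and their side of the threshold, 9 lost and 10 gained a call, and 19 changed sign. The cause of these changes was not tested, except that fewer genes or libraries enter by construction where a filter is raised or libraries are left out.

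Scaling mattered most, and it moved counts in the comparisons with day 12. With total counts, 2982 genes were called higher at day 12 against day 0; between day 1 and day 12, 7731 genes were higher and 2667 lower at adjusted p alone, with 7 regulators higher and 1 lower, and 1 regulator was lower at day 12 against day 0. Dnm1l (0.123), Mfn1 (0.1), Opa1 (0.074) and Polg (0.15) then lay above 0 between day 1 and day 12 and passed the test (adjusted p no higher than 0.0365). With the reference genes, 9713 genes were called higher and 643 lower at day 12 against day 0 (11822 and 1068 at adjusted p alone), and 10196 and 255 between day 1 and day 12 (12556 and 473). The regulators called higher were 8 and 9 (9 and 10 at adjusted p alone), with 0 lower at adjusted p alone in both. Signs changed at day 12 against day 0 for Esrra (0.613), Polg (0.328), Ppargc1b (0.365), Ccdc111 (0.144), Oma1 (0.334), Rrm2b (0.199) and Tfb1m (0.318). They changed between day 1 and day 12 for Dnm1l (0.74), Esrra (0.611), Mfn1 (0.719), Opa1 (0.692), Polg (0.765) and Tfam (0.397), and at day 1 against day 0 for Esrra (0.003) and Nrf1 (0.001).

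Tested against 1.5-fold with glmTreat, genes called higher numbered 628 at day 1 and 906 between day 1 and day 12, and genes called lower 1206 and 759. The calls of Ppargc1b at day 1 and of Gabpa between day 1 and day 12 were then lost, leaving 0 and 0. With a mean of at least 10 CPM, which removes Ppargc1b and leaves 0 regulators lower at day 1, genes called higher numbered 418 at day 1, 636 at day 12 and 409 between the times, and genes called lower 745, 1053 and 485. Mfn2 was then -0.035 at day 1 and Polg 0.004 between day 1 and day 12. In the larger series of library numbers, 0 regulators were called lower at day 1 and Ppargc1b was -0.076 between day 1 and day 12.

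Without each library in turn, regulators called lower numbered 0 to 1 in either comparison with day 0, and Ppargc1b between day 1 and day 12 ran from -0.004 to 0.255. With the replicate block, 4 regulators rose and 3 fell at day 1 and 5 rose and 2 fell at day 12, as without it; the block changed no regulator's call but brought Fam54a at day 1 under 1.5-fold (0.574), and 10 of 15 libraries correlated best with their own number. Ppargc1b, at 28 to 95 counts per library, had the fewest reads of the 10.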
